A study of Mus musculus with 12 samples.

Results

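The comparison described here sets 3 pancreas tumours in which FAP-positive cells had been depleted against 3 tumours of the same thymidine kinase line without depletion, chosen by the genotype given for each sample. These are 6 of the 12 tumours in the series, each from its own mouse and each measured on 1 one-colour array, and 30142 genes were tested. One group is labelled PKT with FAP depleted, and the other PKT with FAP-TK control and no depletion. The remaining 6 tumours belong to a second line, in which cells marked by alpha smooth muscle actin (aSMA) were the target, and they entered the fit so that the spread was estimated over 4 groups. PKT mice lack the TGF-beta type II receptor in the pancreas, with Cre recombinase driven by Ptf1a, and they develop pancreatic ductal adenocarcinoma early in life. All of the tumours compared share the PKT background, so Tgfbr2 loss in the epithelium is common to the controls and the depleted group. Viral thymidine kinase (TK) turns the prodrug ganciclovir into a toxic nucleotide in the cells that carry it, so cells of the FAP-TK line that use the FAP promoter are the ones meant to be lost. Ganciclovir at 50 ug per kg is listed for every tumour, controls included, although the controls are described as undepleted, so it is uncertain which animals received it. Where only the depleted mice did, drug and cell loss cannot be told apart. The labels give no age, sex or duration of treatment.

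Fibroblast activation protein (FAP) is a cell-surface serine protease of activated fibroblasts. In pancreatic cancer these cells lie in a dense stroma of collagen, hyaluronan, vessels and immune cells, where they lay down matrix and secrete chemokines. Some pericytes and mesenchymal stromal cells elsewhere in the body also carry FAP. Bulk tissue was measured, so fewer cells of a type and less RNA per cell cannot be told apart in any value below.

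Array quality differed within both groups. Control-probe separation, the median of the positive-control probe sets minus that of the negative-control probe sets on the deposited log2 scale, was 2.97, 4.44 and 2.99 in FAP-TK control replicates 1 to 3. It was 4.32, 2.69 and 4.41 in FAP depleted replicates 1 to 3. The 3 arrays of low separation were thus FAP-TK control replicates 1 and 3 and FAP depleted replicate 2, while the other line lay between 4.32 and 4.89. Their negative controls were raised, with medians of 6.39 to 6.49 against 5.46 to 5.62 on the other 3 arrays of the line, and their positive controls were lower, at 9.09 to 9.46 against 9.87 to 10.05. Of the bacterial spike-in controls, bioB lay between 7.36 and 8.01 on these arrays and between 8.02 and 8.05 on the other 3, while cre overlapped, between 12.33 and 12.73 against 12.26 and 12.44. For separation between depleted and control tumours an exact permutation test gave a two-sided p = 1.0. With 3 against 3 that test cannot give less than 0.1, so it cannot show that separation was equal. The leading principal component of the 6 arrays held 44.5% of the variance and placed the 3 arrays of low separation on one side (-52.4, -18.8 and -63.0) and the other 3 on the opposite side (77.5, 25.3 and 31.4). Gene values correlated at 0.962 to 0.974 between control arrays, 0.976 to 0.991 between depleted arrays and 0.959 to 0.986 between groups. The 9 cross-group pairs therefore overlapped the pairs within each group. A Y-linked gene was expressed in 2 of 3 tumours of each group, so both groups held animals of both sexes. Results are given below on all 6 arrays and, where they rest on the 3 arrays of low separation, also without them, which leaves 2 depleted tumours and 1 control.

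**Figure D1:**
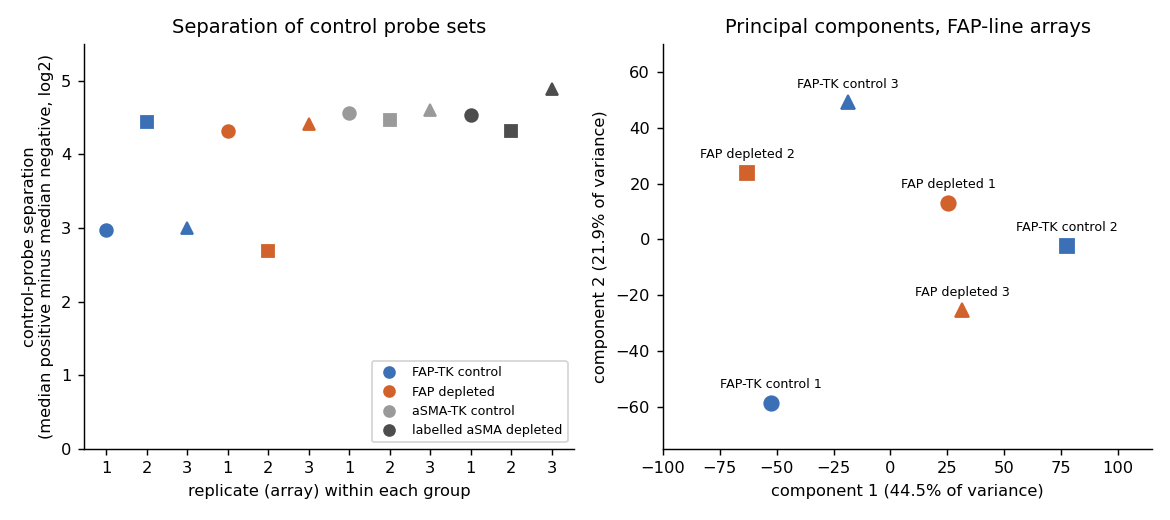
The left panel plots control-probe separation (log2 units) for each of the 12 arrays by group, and the right panel the first and second principal components of the 6 FAP-line arrays over 30142 genes. FAP-TK control replicates 1 and 3 and FAP depleted replicate 2 lie between 2.69 and 2.99, below the other 9 arrays, and fall on the negative side of component 1.

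Fap itself was lower in every depleted tumour than in every control. Its normalized log2 intensity was 6.56, 7.31 and 6.53 in the controls and 5.52, 5.34 and 6.21 in the depleted tumours. The groups did not overlap, and the difference was -1.11 ± 0.37 (n = 3 and 3). Here and below, ± gives limma's SE, with the spread pooled over all 4 groups and not over these 6 tumours alone. For Fap the two-sided exact permutation test gave p = 0.1, which 3 against 3 cannot go below. In limma's test over all genes the adjusted p was 1.00. Leaving out each FAP-line array in turn gave differences from -1.37 to -0.86, and without the 3 arrays of low separation it was -1.45. On none of the 6 arrays did Fap exceed the 95th percentile of the negative-control probe sets, so its level lies within the range of the background probes and its difference is a weak check of the labels.

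No gene passed the test. With limma's moderated test and Benjamini-Hochberg adjustment over 30142 genes, 0 genes (0%) had an adjusted p under 0.05, and the smallest adjusted p was 0.785. An unadjusted p under 0.05 was reached by 1117 genes (3.71%), of which 799 (2.65%) were higher and 318 (1.06%) lower in the depleted tumours. An unmoderated two-sample test on the same 6 arrays also called 0 genes, with 1169 at an unadjusted p under 0.05. The 3 depleted and 3 control values did not overlap for 2440 genes (8.10%), 1687 of them higher (5.60%) and 753 lower (2.50%). Among the 3415 genes above background, defined as above the 95th percentile of negative-control probe sets on at least 3 of the 6 arrays, 85 (2.49%) were higher without overlap and 38 (1.11%) lower. All differences below are therefore descriptions of these 6 tumours, and unadjusted p-values are given as such. Across all genes the median difference was 0.04, and 18060 genes (59.9%) had a difference above 0. That median was 0.01 at levels under 4 and between 0.04 and 0.15 at higher levels. The background cutoff was set on each array. It was 10.94 to 11.29 on the 3 arrays of low separation and 9.29 to 9.74 on the other 3. A gene between these levels could pass only through FAP depleted replicates 1 and 3 and FAP-TK control replicate 2. The filter can thus favour genes high in the depleted tumours, and the counts above background carry this limit.

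Marker genes of the fibroblasts as a whole were lower in the mean but did not separate the groups. All 8 measured members of a pan-fibroblast list of 9 had a difference below 0, with a median of -0.59 against 0.04 over all genes, yet none had an unadjusted p under 0.05 and none was free of overlap. The mean level of the list was 8.71, 9.96 and 10.44 in the controls and 9.64, 7.48 and 9.78 in the depleted tumours. The single low value was that of FAP depleted replicate 2, an array of low separation, and the other depleted tumours lay inside the range of the controls. Without that array the median difference of the list was 0.07, and without all 3 arrays of low separation it was -0.33, with 3 of 8 members above 0. Dcn, the collagen-binding proteoglycan decorin, read 8.20, 11.25 and 12.19 in the controls and 10.80, 6.95 and 9.81 in the depleted tumours. Its difference was -1.36 ± 1.15. Col1a1, a chain of type I collagen chosen here after its values were seen, read 14.61, 13.48 and 13.95 against 13.74, 11.62 and 15.10. That difference of -0.53 ± 0.99 became 0.41 without FAP depleted replicate 2 and 0.94 without the 3 arrays of low separation.

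Contractile and vascular markers spread widely within the groups. Acta2, which encodes aSMA, read 8.86, 14.60 and 12.82 in the controls and 11.87, 7.84 and 11.51 in the depleted tumours. The values overlapped over most of their range, with a difference of -1.69 ± 1.71, or -2.92 without the 3 arrays of low separation. The 8 smooth muscle genes had a median difference of 0.08, the 7 pericyte genes 0.03 and the 11 endothelial genes 0.08, with 0 non-overlapping members in each list. On the endothelial list the means were 5.84, 7.33 and 5.15 against 6.73, 4.97 and 6.61, so control and depleted tumours interleaved. Without the 3 arrays of low separation the endothelial median was -0.58 and the smooth muscle median -0.33.

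Markers of other cells that a pancreatic tumour can hold are given here because they moved with several gene groups below. Ductal and tumour epithelial genes, such as keratins and claudins, were higher in the mean for 10 of 10 measured members, with a median of 0.89 and 1 member free of overlap. Their mean was 13.90, 14.52 and 13.45 in the controls and 15.20, 13.76 and 15.51 in the depleted tumours. FAP depleted replicate 2 lay within the control range, and the other depleted tumours above it. Krt19, a ductal keratin, read 15.90, 18.11 and 15.87 against 18.10, 16.51 and 18.78, with overlap. Its difference of 1.17 ± 0.70 was 0.33 without the 3 arrays of low separation and 0.68 to 1.91 with each FAP-line array left out. Acinar enzyme genes had a median difference of 2.15 over 9 members, which was 3.42 without the 3 arrays of low separation. Of these members 5 were higher without overlap against 5.60% of all genes, and none had an unadjusted p under 0.05. Those 5 were dim, above background on 0 to 2 of the 6 arrays. The 2 members that counted as above background both overlapped between groups. The acinar mean was 6.84, 6.95 and 8.67 in the controls and 10.77, 8.35 and 9.71 in the depleted tumours, so FAP-TK control replicate 3 exceeded FAP depleted replicate 2. The part of acinar and epithelial content in the results below was not tested. All 10 islet genes had a difference above 0, with a median of 0.27 and no member free of overlap, but without the 3 arrays of low separation 5 of 10 were above 0 and the median was -0.0018.

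**Figure D2:**
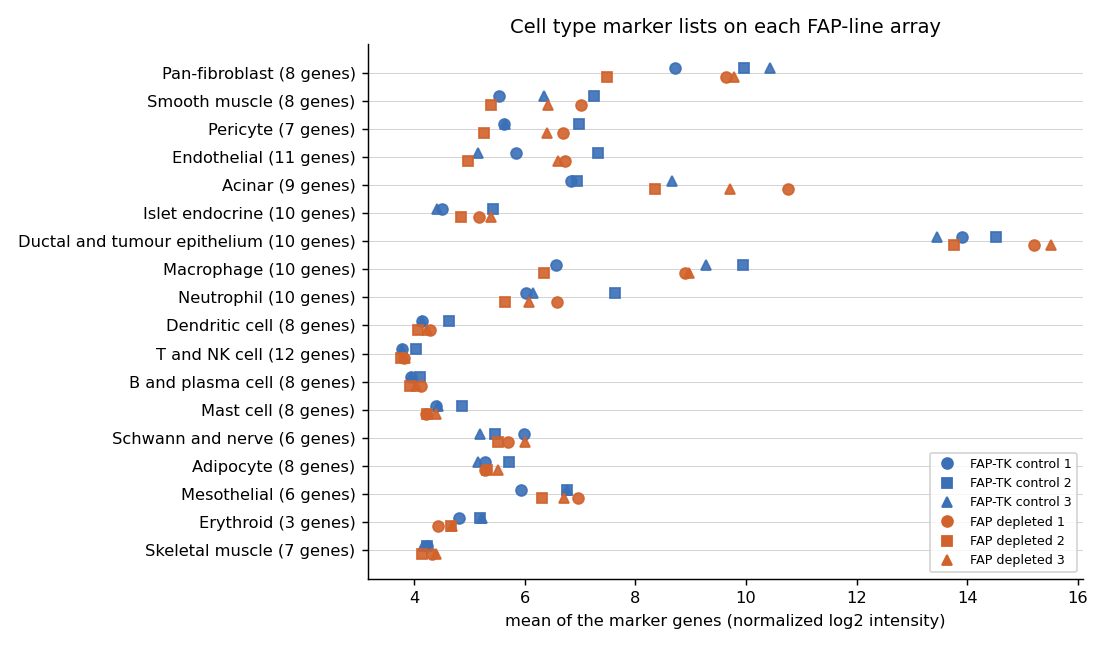
Each point is the mean normalized log2 intensity of the measured genes of 1 of 18 cell type marker lists on 1 array, with controls in blue and depleted tumours in orange. The ductal list lies near 13 to 16 in both groups, and the pan-fibroblast list is lowest on FAP depleted replicate 2 (7.48), an array of low separation.

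Among single genes the largest separation was that of Prap1, the gene of a proline-rich acidic protein secreted by gut and uterine epithelium. It read 11.71, 11.19 and 8.95 in the controls and 15.19, 15.38 and 16.57 in the depleted tumours. Every depleted tumour lay more than 3 log2 units above every control. The difference was 5.10 ± 0.78, with an unadjusted limma p of 7.64e-05 and an adjusted p of 0.785, and it ranged from 4.27 to 5.65 with each FAP-line array left out. Prap1 was also higher by 2.31 ± 0.78 in the tumours labelled aSMA depleted than in their own controls. Prap1 has the largest difference of the genes that were higher, and the cystine transporter Slc7a11 is a known target of stress-response factors, so the 300 bases around their start sites (250 before and 50 after, RefSeq, GRCm38.p6, 5′ to 3′ on the strand of the gene) are shown. The Prap1 promoter lies on the plus strand at chr7:140093146-140093445 and that of Slc7a11 on the minus strand at chr3:50443564-50443863. Capitals mark matches to the amino acid response element core TGATGNAA on either strand.
Prap1: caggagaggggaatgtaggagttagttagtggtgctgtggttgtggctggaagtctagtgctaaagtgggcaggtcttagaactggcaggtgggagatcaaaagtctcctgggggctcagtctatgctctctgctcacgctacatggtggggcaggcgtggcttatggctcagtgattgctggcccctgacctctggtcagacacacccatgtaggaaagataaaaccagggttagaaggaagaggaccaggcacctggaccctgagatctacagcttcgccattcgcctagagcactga
Slc7a11: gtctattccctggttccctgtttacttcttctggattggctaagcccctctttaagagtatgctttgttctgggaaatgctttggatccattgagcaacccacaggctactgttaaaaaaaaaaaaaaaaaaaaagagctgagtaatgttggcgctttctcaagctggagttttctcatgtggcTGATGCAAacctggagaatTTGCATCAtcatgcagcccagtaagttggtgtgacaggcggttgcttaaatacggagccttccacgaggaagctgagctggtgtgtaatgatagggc
The Slc7a11 window holds 2 matches, one on each strand, beginning at bases 185 and 204 of the 300, and 3.97% of 32851 mouse promoters of this length hold at least 1. Neither the antioxidant response element core TGACNNNGC, held by 12.4% of promoters, nor the AP-1 site TGANTCA, held by 7.81%, was found in either window on either strand. The 2 matches do not overlap each other. On the integrated stress response list 13 of 15 genes had a difference above 0, and 0 were free of overlap. The median of that list was 0.15, or 0.02 without the 3 arrays of low separation. Any part of these matches in the Slc7a11 difference was not tested.

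Glutathione synthesis was represented among the highest genes by both the import and the ligation step. Slc7a11, which brings in cystine in exchange for glutamate, read 10.95, 9.85 and 9.45 in the controls and 12.13, 12.03 and 13.64 in the depleted tumours. The groups did not overlap, and the difference was 2.52 ± 0.63. Gclc, the catalytic subunit of the enzyme that limits glutathione synthesis, read 15.55, 12.43 and 13.07 against 16.56, 15.66 and 18.63. FAP-TK control replicate 1 came within 0.2 units of FAP depleted replicate 2, and the difference was 3.27 ± 0.87, or 5.16 without the 3 arrays of low separation. Gsta2, a glutathione transferase, read 11.28, 12.46 and 9.55 against 12.80, 13.47 and 13.75, with a difference of 2.24 ± 0.75 that was 0.81 without the 3 arrays of low separation. The wider list of NRF2 and glutathione genes did not move as one. Of its 13 members 10 were measured, and its median of 0.53 was -0.09 without the 3 arrays of low separation. A difference above 0 was found for 7 of the 10, against 59.9% of all genes. The 2 members free of overlap (Slc7a11 and Gclc) were both higher, against 5.60% of all genes. Nqo1, a quinone reductase and standard NRF2 target, read 5.61, 9.89 and 7.22 against 8.39, 7.52 and 9.24, a difference of 0.81 ± 1.27 that was -1.08 without the 3 arrays of low separation. Hmox1, the inducible haem oxygenase, had a difference of -0.19 ± 1.28, which was 0.84 without those arrays and -1.40 to 1.11 with 1 array left out.

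Other transporters and metabolic genes were split in direction. Slc4a4, a sodium bicarbonate cotransporter of duct cells, read 11.40, 9.53 and 10.39 in the controls and 12.54, 11.77 and 13.14 in the depleted tumours. Its groups did not overlap, and the difference of 2.04 ± 0.82 was 3.30 without the 3 arrays of low separation. Gpd2, the mitochondrial glycerol-3-phosphate dehydrogenase, differed by 0.75 ± 0.17 and Slc37a3, a member of the sugar phosphate exchanger family, by 0.66 ± 0.15. Each was above background on 3 of the 6 arrays, the fewest the filter allows. In the amino acid transporter list of 13, 9 members had a difference above 0, and the median was 0.09. In each direction 1 member was free of overlap, against 5.60% of all genes higher and 2.50% lower. The lower one was Slc1a5, a glutamine transporter, at 9.12, 8.62 and 9.27 against 8.35, 7.78 and 8.41, a difference of -0.82 ± 0.29 that was -0.24 without the 3 arrays of low separation. It lay above background on none of the 6 arrays.

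Surface and adhesion genes of epithelium were higher in most depleted tumours. Msln, the surface glycoprotein mesothelin of mesothelium and pancreatic cancers, read 12.04, 13.57 and 13.01 in the controls and 15.41, 13.69 and 15.34 in the depleted tumours. FAP depleted replicate 2 exceeded the highest control by only 0.1 units, and the difference was 1.94 ± 0.48. The mesothelial marker list did not share it: 3 of its 6 members had a difference above 0, Msln was the 1 member free of overlap, and the median was -0.08. Itgb4, the integrin beta 4 chain of hemidesmosomes, read 9.23, 9.43 and 9.36 against 11.31, 9.67 and 11.23, again with FAP depleted replicate 2 just above the controls. Its difference of 1.40 ± 0.38 became 1.93 without that array, where its adjusted p by limma was 0.0328. Itga6, the partner chain of Itgb4, differed by 0.75 ± 0.36 and Itgb6, an epithelial integrin chain that binds latent TGF-beta, by 1.21 ± 0.41, both without overlap, and Itga6 by 1.16 without the 3 arrays of low separation. Of the 10 epithelial integrins, 8 had a difference above 0 and 3 were higher without overlap, against 5.60% of all genes and 2.49% of those above background. Their median was 0.78.

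Basement membrane and junction genes were likewise highest on FAP depleted replicates 1 and 3. The list of hemidesmosome and basement membrane laminin genes had a difference above 0 for 12 of 13 measured members and a median of 0.65, with 0 free of overlap. Its mean was 7.71, 7.87 and 7.71 in the controls and 8.90, 7.28 and 8.87 in the depleted tumours, so FAP depleted replicate 2 lay below all 3 controls. Lamb3, a chain of the hemidesmosomal laminin, differed by 0.91 ± 0.36 with overlap, and it was above background on none of the 6 arrays. Tight junction genes were higher for 11 of 13 members, with a median of 0.70 and 4 free of overlap, against 5.60% of all genes higher without overlap. These were F11r, the junctional adhesion molecule A (difference 0.96 ± 0.26), Cldn7 (0.86 ± 0.24), the junction scaffold Cgn (1.43 ± 0.41) and Marveld2, or tricellulin (0.70 ± 0.21). F11r read 11.73, 11.95 and 11.37 against 12.54, 12.54 and 12.86, and it was the 1 of the 4 above background on all 6 arrays. Cldn7 and Marveld2 were above background on none. Cldn4 read 11.29, 12.31 and 13.06 against 14.91, 12.00 and 15.56, with overlap and a difference of 1.94 ± 0.87. Without the 3 arrays of low separation Cldn4 differed by 2.93 and Cgn by 2.19. Grhl2, a transcription factor of epithelial cells, read 8.43, 8.01 and 8.41 against 8.76, 9.32 and 9.07, a difference of 0.77 ± 0.16. It was above background on 1 of the 6 arrays. The mean of the ductal and tumour epithelial markers was likewise high on FAP depleted replicates 1 and 3 and within the control range on replicate 2, and its part in these differences was not tested.

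Further leading genes in the higher direction belong to no fixed list. Crybg1, a crystallin-domain protein that associates with actin, read 10.08, 9.32 and 9.51 in the controls and 11.82, 11.01 and 11.81 in the depleted tumours. The groups lay 0.9 units apart at their nearest values, with a difference of 1.91 ± 0.31 and an unadjusted limma p of 1.10e-04. Ralgapb, a subunit of a Ral GTPase-activating complex, read 10.55, 10.37 and 10.31 against 11.56, 11.31 and 11.73, and its difference of 1.12 ± 0.21 went with SDs of 0.12 and 0.21 within the groups. Capn2, a catalytic calpain subunit, differed by 1.04 ± 0.27 and the matrix glycoprotein Efemp1, or fibulin-3, by 1.79 ± 0.48. Sdcbp2, the scaffold protein syntenin-2, differed by 1.74 ± 0.56, which was 0.96 without the 3 arrays of low separation.

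**Figure D3:**
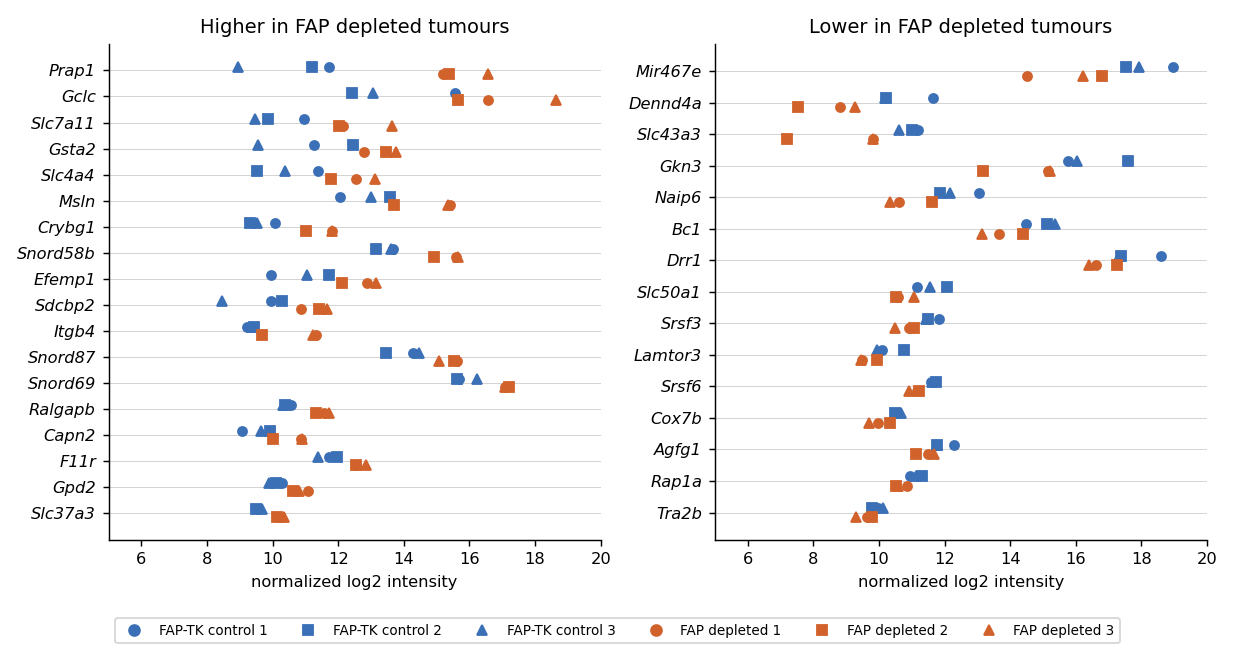
Normalized log2 intensity (x axis) of leading genes without overlap is plotted on each of the 6 arrays, for genes higher (left panel) and lower (right panel) in the depleted tumours, with controls in blue and depleted tumours in orange. Prap1 has the widest gap, from 11.71 in the highest control to 15.19 in the lowest depleted tumour, and Tra2b at the foot of the right panel has almost none.

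Small nucleolar RNAs, which guide chemical modification of ribosomal RNA, were higher as a class. Of 66 annotated as snoRNA, 54 had a difference above 0, 8 (12.1%) were higher without overlap and none lower, against 5.60% and 2.50% over all genes. Their median difference was 0.73. The class mean was 9.08, 9.00 and 9.80 in the controls and 9.91, 10.58 and 9.59 in the depleted tumours, so FAP-TK control replicate 3 exceeded FAP depleted replicate 3. With each FAP-line array left out the class median lay between 0.35 and 0.87, and it was 0.67 without the 3 arrays of low separation. Under array weights the class median was 0.31 and 41 of 66 were higher, where 66.1% of all genes were higher. Without FAP depleted replicate 2, 46 of 66 were higher, where 65.5% of all genes were. Snord69 read 15.68, 15.62 and 16.23 against 17.08, 17.20 and 17.10, a difference of 1.28 ± 0.21 with all depleted tumours within 0.1 units of their mean. Snord58b differed by 1.91 ± 0.39, Snord87 by 1.34 ± 0.34 and Snord14e by 0.96 ± 0.86, all without overlap. The probe set name for Snord58b carries a chromosome other than chromosome 18, where the gene is listed, and that for Snord14e is marked unmapped. What these probe sets read is therefore uncertain. On the fixed list of C/D box snoRNAs, 9 of 20 entries were measured, all 9 with a difference above 0 and 2 free of overlap.

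Probe sets for ribosomal RNA were also higher, for 32 of 34 with a median of 2.04, but 0 of them were free of overlap. Their mean was 13.65, 14.02 and 17.43 in the controls and 17.61, 18.33 and 14.70 in the depleted tumours. FAP-TK control replicate 3 thus had the high level of most depleted tumours, and FAP depleted replicate 3 a level near that of the remaining controls. The snoRNA class mean had the same 3 arrays highest, and the part of the ribosomal RNA level in the snoRNA differences was not tested. Messenger RNAs of ribosomal proteins had a median difference of 0.04 over 12 measured of 25, which was -0.58 without the 3 arrays of low separation. MicroRNA probe sets had a median of -0.03 over 554, with 244 above 0.

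Lower genes were fewer and their differences mostly smaller. Dennd4a, an exchange factor for Rab GTPases, read 11.64, 10.21 and 10.20 in the controls and 8.81, 7.54 and 9.27 in the depleted tumours. The groups did not overlap, and the difference was -2.14 ± 0.53, or -1.17 without the 3 arrays of low separation. Slc43a3, a purine nucleobase transporter, read 11.18, 11.02 and 10.60 against 9.81, 7.20 and 9.80. FAP depleted replicate 2 lay 2.6 units below its group, and the difference of -1.997 ± 0.64 was -1.13 without that array and -1.22 without the 3 arrays of low separation. Bc1, a small noncoding RNA best known from neurons, read 14.50, 15.13 and 15.38 against 13.65, 14.41 and 13.15, a difference of -1.27 ± 0.31. Slc50a1, a sugar transporter, differed by -0.88 ± 0.25. Naip6, an innate immune receptor of the inflammasome, differed by -1.50 ± 0.57, and the microRNA gene Mir467e by -2.29 ± 0.78. The probe set name for Mir467e carries a chromosome other than chromosome 2, where the gene is listed, so what it reads is uncertain.

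Several splicing and signalling genes had small differences, on probe sets above background on 3 to 6 of the 6 arrays. Srsf6, an SR-family splicing factor, read 11.60, 11.75 and 11.63 in the controls and 11.17, 11.24 and 10.92 in the depleted tumours. The difference of -0.55 ± 0.18 was free of overlap and lay between -0.61 and -0.46 with each FAP-line array left out. Srsf3, of the same family, differed by -0.76 ± 0.33, and the splicing regulator Tra2b by -0.40 ± 0.20, where the nearest control and depleted values both rounded to 9.80. Lamtor3, part of the lysosomal Ragulator complex, differed by -0.65 ± 0.21, and Cox7b, a subunit of cytochrome c oxidase, by -0.55 ± 0.18. The small GTPase Rap1a differed by -0.47 ± 0.18 and Agfg1, an Arf GTPase-activating protein with FG repeats, by -0.50 ± 0.20. Without the 3 arrays of low separation Agfg1 differed by -0.16 and Lamtor3 by -1.31. On all 6 arrays Cox7b was not joined by its pathway: 12 of 19 oxidative phosphorylation genes had a difference above 0, against 59.9% of all genes. Their median was 0.09, with 0 free of overlap. Without the 3 arrays of low separation 4 of the 19 were above 0, with a median of -0.36, and Cox7b differed by -0.65. Tcirg1, the a3 subunit of the vacuolar proton pump, read 8.52, 9.62 and 8.74 against 7.69, 7.18 and 7.74, a difference of -1.42 ± 0.29. It was above background on 1 array. Of the 14 measured pump genes it was the 1 free of overlap, against 2.50% of all genes lower without overlap.

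Gastric and mucosal secretory genes, which mark a stomach-like state of pancreatic tumour cells, went both ways. Of 15 members 9 had a difference above 0, with a median of 0.32 that was -0.35 without the 3 arrays of low separation. Free of overlap were 2 higher members (Prap1 and Muc5ac) and 1 lower (Gkn3), against 5.60% and 2.50% of all genes. Gkn3, a gastrokine, read 15.77, 17.58 and 16.02 in the controls and 15.14, 13.18 and 15.22 in the depleted tumours, a difference of -1.94 ± 0.82. Muc5ac, the mucin of gastric surface cells, read 14.00, 13.13 and 13.40 against 14.61, 14.15 and 16.37. It was free of overlap, and its difference was 1.53 ± 1.85, with the error pooled over all 4 groups, or 2.36 without the 3 arrays of low separation. Muc6, the mucin of gastric glands, read 15.19, 11.07 and 15.44 against 12.82, 6.81 and 8.74. Agr2, a disulfide isomerase needed for mucin folding, read 11.50, 13.85 and 15.07 against 11.72, 9.58 and 8.25. Both overlapped between groups, with differences of -4.44 ± 1.70 and -3.62 ± 1.43, and both were chosen here after their values were seen. For Muc6 the difference was -0.29 without the 3 arrays of low separation. Tff1, a trefoil peptide, lay between 18.37 and 19.84 on all 6 arrays, close to the top of the scale.

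Macrophage markers were lowest on 2 arrays of low separation, 1 in each group. The macrophage list had a mean of 6.56, 9.95 and 9.27 in the controls and 8.90, 6.35 and 8.96 in the depleted tumours. These low arrays were FAP-TK control replicate 1 and FAP depleted replicate 2, and no member of 10 was free of overlap. Its median difference of -0.44 lay anywhere from -1.62 to 0.62 with 1 FAP-line array left out. Adgre1, a surface receptor of mature macrophages, differed by -0.72 ± 0.73 and Csf1r, the receptor for macrophage growth factor, by -0.52 ± 0.86, and Csf1r was 0.43 without FAP depleted replicate 2 and -0.89 without the 3 arrays of low separation. Neutrophil genes had a median of -0.42 over 10, with the highest mean (7.63) in FAP-TK control replicate 2, and a median of -1.41 without the 3 arrays of low separation. T and NK cell, B and plasma cell and dendritic cell lists had means of 3.76 to 4.63 on every array of both groups, with no member above background, so differences in these cells were not detectable at this signal.

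Chemokine and antigen presentation lists held little above background. Of 17 CC chemokine and receptor genes, 15 had a difference below 0, with a median of -0.43 and 2 of the 17 above background. Lower without overlap were 2 of the 17, against 2.50% of all genes. Without the 3 arrays of low separation the median was -0.75, and without FAP-TK control replicate 2 it was -0.01. One of those free of overlap was Ccl28, a mucosal chemokine, at 5.52, 5.55 and 5.55 against 4.77, 5.06 and 5.25, a difference of -0.52 ± 0.13 at a level below background on all 6. Of the 18 CXC genes none was free of overlap, and the median was -0.08. H2-Ea, a class II chain absent from many inbred strains, lay between 3.45 and 3.80 on all 6 arrays, within the level of the dimmest genes. The mast cell protease gene Mcpt4 read 5.58, 10.01 and 5.49 against 5.23, 4.87 and 5.19. It was lower without overlap, and its difference of -1.93 ± 1.23 was -0.44 without FAP-TK control replicate 2 and -4.81 without the 3 arrays of low separation. Complement genes had a median of -0.61 over 9, with 0 free of overlap, which was 0.06 without FAP depleted replicate 2 and -1.05 without FAP-TK control replicate 1. Interferon-induced genes had a median of -0.11 over 15, also with 0 free of overlap, and -0.39 without the 3 arrays of low separation.

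Matrix protease and signalling genes were mixed in direction. Plat, the tissue plasminogen activator, read 8.41, 9.81 and 9.11 in the controls and 12.94, 9.59 and 12.83 in the depleted tumours. FAP depleted replicate 2 lay inside the control range, and the other depleted tumours about 3 units above it, with a difference of 2.68 ± 0.77. Plau, the urokinase gene, differed by 0.74 ± 0.56, and the list of plasminogen activators and serpins had a median of 0.28 over 8. Mmp7, an epithelial metalloproteinase, read 15.72, 12.30 and 15.53 against 15.85, 16.51 and 16.70, and Adamts1 read 6.00, 7.77 and 7.83 against 8.79, 8.78 and 8.95. Both were free of overlap, with differences of 1.84 ± 1.35 and 1.64 ± 0.49 (3.97 and 1.10 without the 3 arrays of low separation). Adamts1 was above background on none of the 6 arrays. The list of matrix metalloproteinases and inhibitors had a median of 0.02 over 14. Immediate early genes had a difference above 0 for 9 of 9, but 1 tumour carried it: Fos read 6.75, 8.90 and 9.56 against 9.22, 8.05 and 13.74, and Egr1 5.75, 6.91 and 6.66 against 6.84, 5.84 and 10.46. Without FAP depleted replicate 3 the median of that list was -0.10. Core clock genes had a median of -0.30 over 13, with FAP-TK control replicate 1 highest (8.70, against 7.01 to 7.69 on the other 5 arrays). Without it that median was 0.14. Arntl and Per1, opposing arms of the clock, differed by -0.45 ± 0.74 and -0.82 ± 0.85 and both turned positive without that array, at 0.29 and 0.14.

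Further lists are given here by their counts and medians, beside the median of 0.04 over all genes. Lists that the text does not name are shown only in the figure of all 58 lists. Hypoxia and glycolysis genes were higher for 12 of 14 (median 0.42), EGF ligands and ERK feedback genes for 14 of 17 (0.34), YAP and TEAD targets for 10 of 11 (0.28) and heat shock proteins for 9 of 10 (0.23). In these 4 lists 2 members in all were free of overlap, both higher, against 5.60% of all genes. They were Pgk1 and Epgn. Epgn read between 3.46 and 3.67 on all 6 arrays, below background. The probe set name for Pgk1 carries a chromosome other than X, where the gene is listed. Without the 3 arrays of low separation the medians of the 4 lists were 0.52, 0.14, 0.22 and 0.08. Cell cycle genes were lower for 11 of 14 (median -0.13) and cholesterol synthesis genes for 8 of 12 (-0.19), with 0 free of overlap. The cholesterol median was 0.33 without FAP depleted replicate 2 and -0.65 without the 3 arrays of low separation. TGF-beta pathway genes had a median of 0.16 over 15 with 2 higher without overlap, pancreatic lineage factors 0.15 over 15 with 3, and epithelial-mesenchymal transition factors 0.05 over 14 with 1. Over all genes 5.60% were higher without overlap, and 6.77% of those at a level under 4. The 3 lineage factors were Ptf1a, Nkx6-1 and Pax6. They read between 3.13 and 3.92 on all 6 arrays, above background on none, with differences of 0.20, 0.11 and 0.07.

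**Figure D4:**
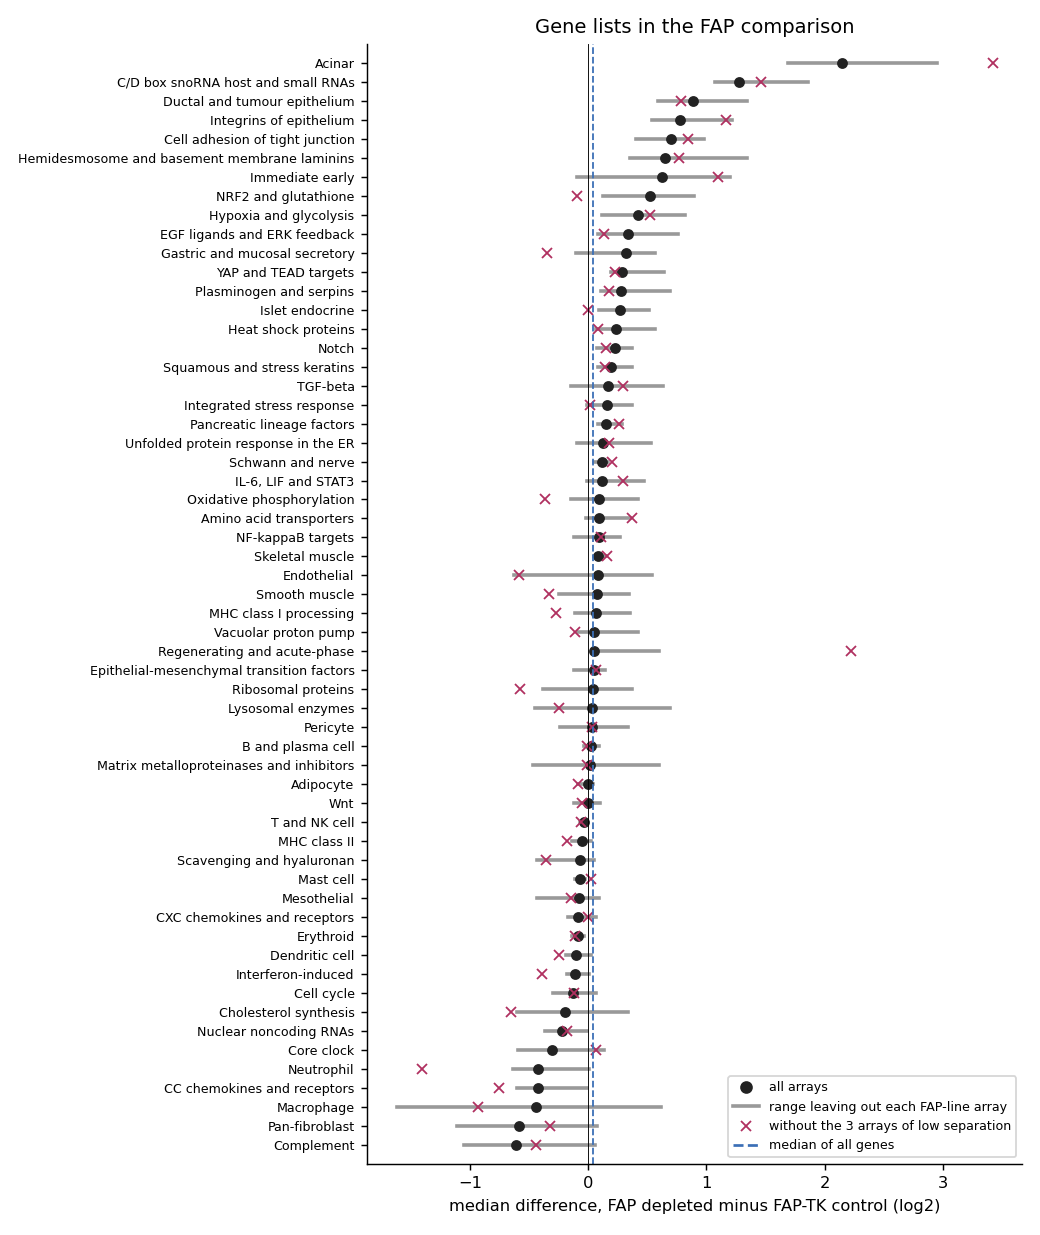
For each of 58 gene lists the black point is the median difference (FAP depleted minus FAP-TK control, log2) over its measured genes, the grey bar its range with each FAP-line array left out, and the cross its value without the 3 arrays of low separation. The dashed line is the median of all genes (0.04), and the acinar list (2.15) lies farthest above it, while the macrophage bar crosses 0 from -1.62 to 0.62.

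Leaving out arrays brought a few genes past the threshold. Without FAP depleted replicate 2, 4 genes had an adjusted p under 0.05 by limma, all higher. They were Plat (3.77 ± 0.36), Itgb4 (1.93 ± 0.19), Dennd11, a DENN-domain protein (1.38 ± 0.13), and Slc7a1, a transporter of cationic amino acids (1.36 ± 0.14), with adjusted p-values of 0.0328, 0.0328, 0.0328 and 0.0363. In the tumour left out, Slc7a1 read 7.05, below the controls at 7.38, 7.73 and 7.64, and Dennd11 read 8.14, above the controls at 7.42, 7.44 and 7.56. Dennd11 and Slc7a1 were above background on none of the 6 arrays, and Plat and Itgb4 on 3. Without the 3 arrays of low separation 13 genes were called, 2 higher and 11 lower. Those higher were Plat (3.07 ± 0.30) and Lamc1, the common laminin gamma 1 chain (2.26 ± 0.17). Among the lower ones was Ms4a6b, a membrane protein of macrophages (-2.72 ± 0.22), at 9.31 in the 1 remaining control against 6.76 and 6.44. With all arrays Lamc1 differed by 0.93 ± 0.50 and Ms4a6b by -1.14 ± 0.76, both with overlap, and Ms4a6b was above background on none. The lone control of that comparison, FAP-TK control replicate 2, was assumed to vary like the other groups. It also had the highest macrophage and neutrophil means of the 6 arrays.

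The effect of depletion in the FAP line was set against that in the aSMA line, which has its own controls. There Acta2, the targeted marker, was higher by 1.68 ± 1.71 in the tumours labelled aSMA depleted than in their controls, so this marker did not bear out the label of that group. For the difference between both effects, 0 of 30142 genes (0%) had an adjusted p under 0.05 by limma, and 1796 (5.96%) had an unadjusted p under 0.05. Fap differed by -1.11 ± 0.37 in the FAP line and 0.34 ± 0.37 in the aSMA line. Gclc was higher in both lines, by 3.27 ± 0.87 and 1.94 ± 0.87, as was Prap1. Slc7a11 differed by 2.52 ± 0.63 against -0.03 ± 0.63, and Crybg1 by 1.91 ± 0.31 against 0.13 ± 0.31. The adjusted p of the difference between lines was 0.829 for Fap, Prap1, Slc7a11 and Crybg1 and 0.881 for Gclc.

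**Figure D5:**
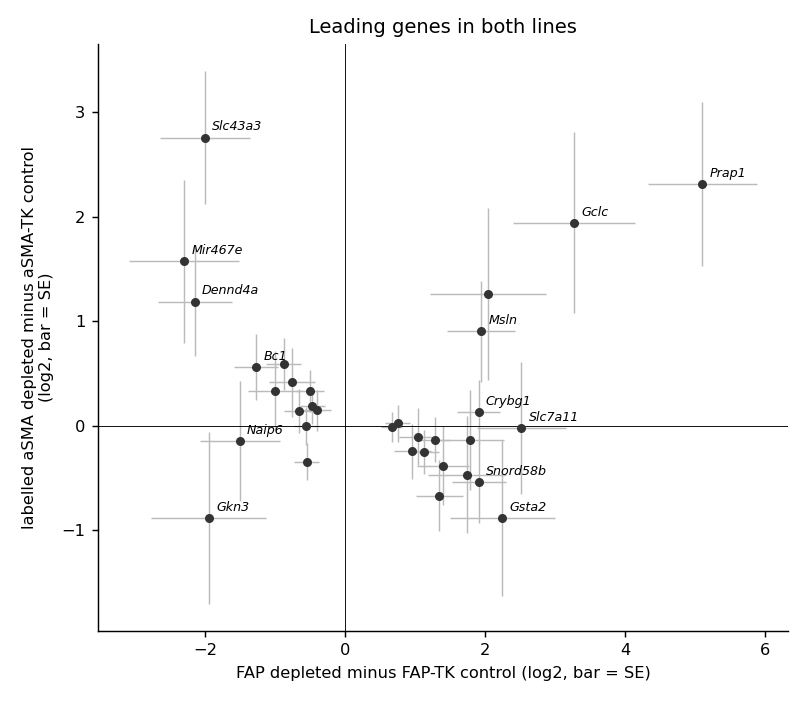
Leading genes of the FAP comparison are plotted by their difference in the FAP line (x axis) and in the aSMA line (y axis), in log2 units with bars of 1 SE. Prap1 and Gclc lie above 0 on both axes, while Slc43a3 lies at -1.997 in the FAP line and 2.76 in the aSMA line.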

How the data were processed

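Expression was measured on 12 one-colour arrays, 1 per tumour. Per the labels' protocols, RNA was extracted with Trizol and labelled with biotin using a kit for Illumina arrays, whereas the probe set names are those of an Affymetrix array. The deposited values, read as log2 intensities from their range of 1.64 to 19.93, cover 72688 probe sets. They span more than a 16-bit scanner can record, so no fold was computed. The submitters' processing notes name limma. For background correction, summarization and genome build the sources used here give nothing.

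After 6732 control probe sets were removed, 65956 were quantile normalized between arrays, because array medians differed. A gene was assigned to the 30604 probe sets for which the platform annotation lists 1 symbol (2146 had several, 33206 none listed). The probe set of highest mean was kept for each of 30142 genes. limma 3.58.1 in R 4.3.3 (statmod 1.5.0) fitted 1 mean per group over all 12 arrays, with p-values adjusted by Benjamini-Hochberg over all genes. The number of arrays limits the precision. The fit was tested on simulated data.

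The comparison and the 58 gene lists (647 of 738 entries measured) were chosen with earlier results of these data known. The genes named are Fap and, per direction, the 15 of smallest p and 10 of largest difference among genes without overlap, above background and with no clone name. The background cutoff differed between arrays, with the limit given above. Each list adds its first 2 members and up to 4 without overlap, and each fit without arrays up to 5 called. Muc6, Agr2 and Col1a1 fall outside this rule. Promoters came from RefSeq (GRCm38.p6). Alternatives covered normalization, offset, filter, probe sets, variance, weights, separation, sex (added after seeing the data) and arrays left out. One part of the description of the mouse model is not reported here.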

Additional observations from a re-analysis of the deposited data

Results flagged for a closer look

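In 5 of the genes named above, every depleted tumour of the FAP line lay on one side of its controls. In the same genes every tumour labelled aSMA depleted lay on the opposite side of its own controls. In the FAP line alone, 8.10% of all genes did not overlap, and the share for both lines together is not given. Lack of overlap in the FAP line was part of the rule that named these 5 genes. The test of the difference between the effects, limma's interaction term, gave an adjusted p of 0.829 for each of them, so no difference between the lines passed. Slc43a3, the purine nucleobase transporter, had a difference between the effects of -4.76 ± 0.91 (-1.997 in the FAP line and 2.76 in the aSMA line). For Dennd4a, the Rab exchange factor, it was -3.33 ± 0.74 (-2.14 and 1.19). Bc1, the small noncoding RNA, gave -1.83 ± 0.44 (-1.27 and 0.56), and the sugar transporter Slc50a1 gave -1.47 ± 0.35 (-0.88 and 0.59). Grhl2, the epithelial transcription factor, gave 1.01 ± 0.23 (0.77 and -0.24).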

How the results depend on the processing

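In the fit reported 0 genes passed an adjusted p of 0.05 or of 0.1, and 13 passed 0.05 without the 3 arrays of low separation and 0 to 4 with 1 array left out. The count at an unadjusted p under 0.05 was 1117. It was 105 with only genes above background tested, 2530 over all probe sets, 5731 with array weights, 2014 with separation as a covariate, 3192 without the 3 arrays of low separation and 693 to 2654 with 1 array left out. The 2440 genes without overlap became 123, 5942 and 22548 with the filter on dim genes, all probe sets and without the 3 arrays of low separation, and 2440 to 7368 with 1 array left out; with fewer genes or arrays such counts change by construction. Between the lines 0 to 1 genes were called with 1 array left out (1 without aSMA-TK control replicate 1). Without the 3 arrays of low separation the sign turned for Nqo1 (-1.08), Hmox1 (0.84), Tff1 (-0.20), Arntl (0.84), Per1 (0.58) and Col1a1 (0.94), and with array weights for Csf1r (0.11) and Arntl (0.54). With 1 array left out, Nqo1 ranged from -0.17 to 1.97, Hmox1 from -1.40 to 1.11, Csf1r from -1.34 to 0.43, Arntl from -0.93 to 0.30, Per1 from -1.40 to 0.14, Col1a1 from -1.33 to 0.41 and Egr1 from -0.10 to 2.21. The cause was not tested. With weights 66.1% and with all arrays 59.9% of genes were higher, against 52.3% without the 3 arrays of low separation. Fap had no value under the filter on dim genes. No paired analysis was possible because the labels give each mouse its own number and no number is shared between groups. Groups of 3 arrays, with 3 of the 6 of low separation, limit what could be detected, most of all for genes within the range of the background probes.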
